A study of Mus musculus with 6 samples.

Results

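The genes described here encode 33 subunits of the receptors for glutamate and GABA, the main excitatory and inhibitory transmitters of the hippocampus. They were taken by name from a count table of 39017 gene identifiers: 4 AMPA, 6 NMDA, 5 kainate and 1 delta receptor genes, 6 metabotropic glutamate receptor genes, 9 GABA-A and 2 GABA-B receptor genes. All 33 names were found and all 33 passed the filter on low counts, among 16196 genes tested. Subunit genes of these receptors outside the list were not analysed here.

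The libraries came from hippocampus of female C57BL/6 mice of the genotype Tmem119-Cre:RiboTag, and both groups share that genotype. RiboTag mice carry an Rpl22 allele whose ribosomal protein is HA-tagged once Cre has acted, and here the microglial gene Tmem119 drives Cre. There were 3 input libraries, made without antibody, and 3 IP libraries, made from RNA caught on anti-HA magnetic beads. Each IP library shares its title code with 1 input library, and such couples are called pairs 1, 2 and 3. The labels name no age, no treatment and no Kdm6a deletion for these libraries, although the series title concerns one. Nothing states that codes stand for separate animals, and the p-values cover only the spread between coded specimens, which may be technical. An IP from mice lacking the tag was not analysed here. Binding through the tag and carry-over on the beads therefore cannot be told apart.

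AMPA, NMDA, kainate and GABA-A receptors are ion channels built of several subunits, whereas metabotropic glutamate receptors and the GABA-B receptor act through G proteins. Neurons express most of these genes, and astrocytes and oligodendrocyte precursors express some of them. Astrocytes clear glutamate and GABA by transporters, and microglia are known mainly for immune and clearing functions, although receptors for both transmitters have been described in cultured microglia.

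The libraries held 10757351 to 20422140 counts, and levels are given as CPM, the usual counts scaled to library size, here with TMM factors. All 12 microglial markers were called higher in IP, with a summed level of 496 to 592 CPM in input and 33169 to 38623 CPM in IP. The labels call the cell type of both groups microglia, but neuronal markers were abundant in input: the 10 pan-neuronal genes summed to 6082 to 6964 CPM there. In IP they summed to 968 to 995 CPM, all 10 were called lower, and none was at 0. The 9 inhibitory neuron markers fell from 1898 to 2148 CPM in input to 109 to 188 CPM in IP, with 9 of 9 called lower. Of 8 excitatory neuron markers 5 were called lower and none higher, with sums of 7585 to 11325 CPM in input and 2836 to 5088 CPM in IP and a median log2 fold of -2.52. Most of the IP sum was Camk2a, a kinase of excitatory synapses, which was not called (2637, 2003 and 4196 CPM in the IP libraries, log2 fold -0.07). The other 7 genes, a split made after seeing the data, summed to 5385 to 7567 CPM in input and 833 to 892 CPM in IP. Of 10 astrocyte markers 9 were lower, with sums of 3078 to 4034 and 929 to 1025 CPM. Of 8 markers of oligodendrocyte precursors 6 were lower, with sums of 530 to 668 CPM in input and 80.7 to 120.0 CPM in IP. All 8 oligodendrocyte markers were lower, with sums of 4675 to 7811 CPM in input and 835 to 1441 CPM in IP. Endothelial markers went the other way, with 6 of 8 called higher and sums of 14.9 to 52.3 CPM in input and 160.2 to 284 CPM in IP. No marker of these lists was at 0 in all IP libraries, and the part that other cell types had in the receptor results was not tested.

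The receptor genes lie on 13 chromosomes, with 2 groups of neighbours among the GABA-A genes. On chromosome 5 of GRCm38, Gabrg1, Gabra2, Gabra4 and Gabrb1 lie in this order between 70751047 and 72149037. Gabra4, on the minus strand, and Gabrb1, on the plus strand, overlap at their starts, run away from each other and share 46 exonic bases. On chromosome 7, Gabrg3 (56716465 to 57387188) and Gabra5 (57407672 to 57510059) are 20.5 kb apart. Start regions, from 250 bases before to 50 bases after a gene's annotated start, were found in RefSeq on GRCm38.p6 for 23 of the 33 genes, with 30 such windows in all. They were searched on both strands for the GC box GGGCGG, which reads as CCGCCC from the other strand and is a motif common in promoters without a TATA box. It was present in 16 of the 30 windows, or 53.3%, against 35.7% of the 32851 windows of all genes. The sequence TATAAA was present in 3 of the 30, or 10%, against 13.6% of all windows. The windows of Grin1 (chr2:25319138-25319437, minus strand) and Gabbr1 (chr17:37045716-37046015, plus strand) are shown. Grin1 encodes the obligatory subunit of the NMDA receptor, and Gabbr1 the subunit of the GABA-B receptor that binds GABA. Capitals mark the GC box, of which Grin1 had 1 and Gabbr1 had 3. A match is a description of the sequence, not evidence that a factor binds there.
Grin1: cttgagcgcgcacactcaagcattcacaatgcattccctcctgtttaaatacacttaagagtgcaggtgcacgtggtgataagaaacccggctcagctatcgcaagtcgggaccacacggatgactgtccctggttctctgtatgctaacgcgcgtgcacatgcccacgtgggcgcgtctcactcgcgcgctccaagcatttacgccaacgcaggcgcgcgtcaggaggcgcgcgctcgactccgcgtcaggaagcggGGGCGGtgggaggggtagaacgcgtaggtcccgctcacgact
Gabbr1: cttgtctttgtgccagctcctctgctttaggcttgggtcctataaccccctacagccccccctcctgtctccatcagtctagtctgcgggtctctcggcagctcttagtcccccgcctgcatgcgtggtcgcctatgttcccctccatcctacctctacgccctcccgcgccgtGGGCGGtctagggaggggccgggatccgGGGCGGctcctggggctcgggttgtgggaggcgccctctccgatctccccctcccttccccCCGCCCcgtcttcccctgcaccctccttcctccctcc

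The receptor genes were lower in IP than in input almost without exception. Of the 33 genes, 28 were called lower by edgeR's quasi-likelihood test at a Benjamini-Hochberg adjusted p below 0.05, against 23.9% of all genes tested. None was called higher, against 23.8% of all genes, and 1 was higher at an unadjusted p below 0.05. That gene, Grin2b, was called higher by DESeq2, by limma-voom and with the title code as a block. The median log2 fold of IP over input was -2.08 over the 33 genes and -0.10 over all genes tested. By pair the median difference of log2(CPM + 0.5) was -2.10, -2.03 and -2.27. All 3 IP libraries were below all 3 input libraries for 29 of the 33 genes, as for 32.9% of all genes tested. These levels are relative to the other RNAs of a library, and neither the number of cells nor the RNA per cell was measured.

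**Figure D1:**
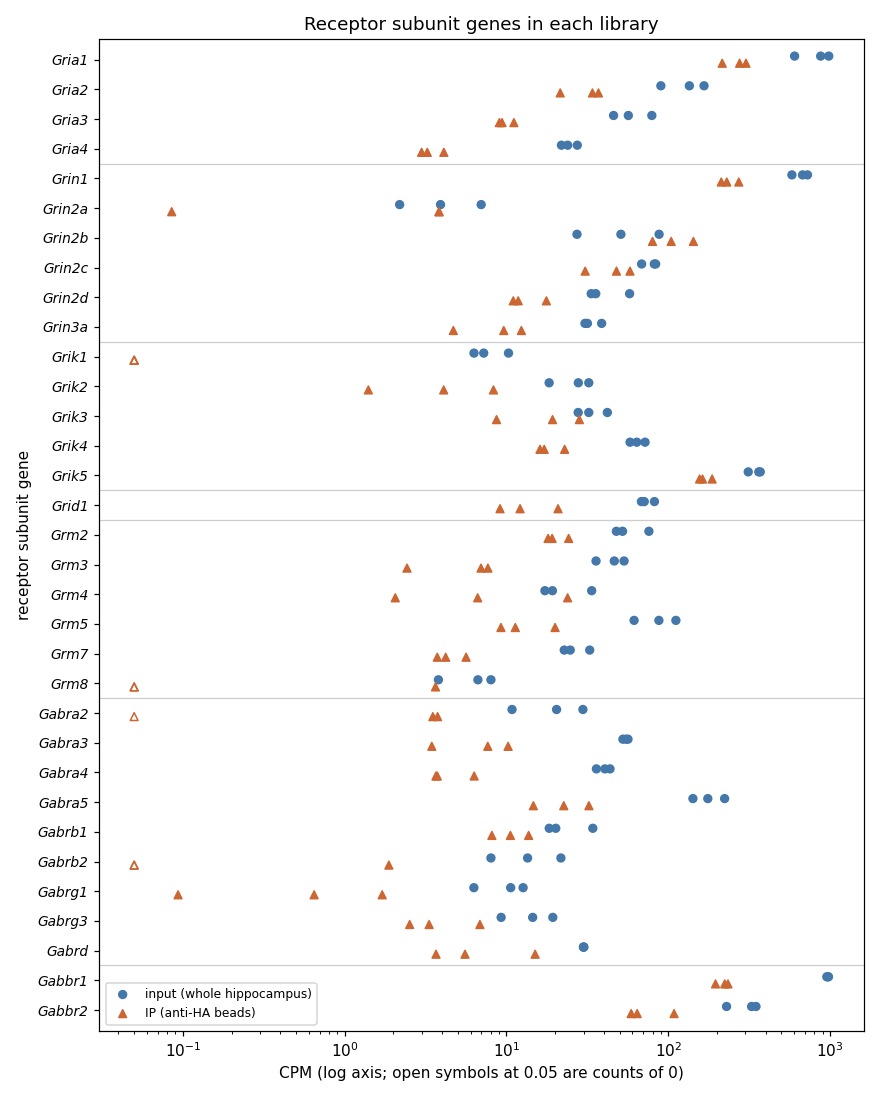
Level of each receptor gene in the 6 libraries, in CPM on a log axis, with circles for input, triangles for IP and grey lines between receptor families. Triangles lie left of the circles for 29 of the 33 genes, and those of Grin2b lie mostly to the right of its circles.

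Summed over the 33 genes, the level was 4527, 3770 and 4806 CPM in input libraries 1, 2 and 3, against 1330, 1263 and 1500 CPM in IP libraries 1, 2 and 3. The IP sum was thus 31.2% of the input sum, and the groups did not overlap. The exact two-sided permutation p was 0.10, the smallest that 3 libraries against 3 allow. By family, the IP level was 47.8% of the input level for NMDA genes, 43.8% for kainate genes and 29.8% for AMPA genes. It was 23.3% for GABA-B genes, 22.8% for metabotropic glutamate receptor genes, 19.0% for the delta receptor gene and 15.9% for GABA-A genes. Abundant genes weigh most in these sums, and genes of a family differed. Single kainate genes ranged from 0% for Grik1 to 55.1% for Grik3, and NMDA genes from 26.4% for Grin3a to 197% for Grin2b. For comparison, the pan-neuronal markers stood at 15.1%, the excitatory markers at 39.2%, or 13.05% without Camk2a, and the inhibitory markers at 6.83%. Single pan-neuronal markers ranged from 4.37% for Elavl4 to 31.0% for Map2. Among excitatory markers the range was 8.86% for Nrgn to 111.2% for Prox1, which was not called (log2 fold 0.15, SE 0.23). Camk2a stood at 95.03%. Inhibitory markers ranged from 1.26% for Vip to 19.96% for Gad1, and oligodendrocyte markers from 6.05% for Mal to 37.05% for Cnp. Astrocyte markers ranged from 9.37% for Aldoc to 69.8% for Slc1a2, and precursor markers from 11.4% for Olig1 to 93.8% for Vcan. Astrocyte markers stood at 28.2%, oligodendrocyte markers at 17.8% and markers of oligodendrocyte precursors at 17.4%, while the microglial and endothelial sums were higher in IP. Differences between families were not tested.

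AMPA receptors carry most fast excitation, and all 4 of their pore-forming subunit genes fell in IP. Gria1 (ENSMUSG00000020524, chromosome 11, 57011387 to 57330244, plus strand) encodes GluA1, a subunit that is added to synapses during plasticity. It stood at 875, 604 and 982 CPM in input libraries 1, 2 and 3, against 276, 216 and 302 CPM in IP libraries 1, 2 and 3, so that every IP library lay far below every input library. Its log2 fold was -1.63 (SE 0.21, edgeR adjusted p = 0.00018). Gria2, whose edited product keeps AMPA receptors nearly impermeable to calcium, was at 135, 90.0 and 166 CPM in input against 37.0, 21.5 and 34.0 CPM in IP (-2.08 on the log2 scale, SE 0.28, or -2.86 with an offset for transcript length). Gria3 was at 56.6, 45.9 and 79.2 CPM in input against 9.39, 9.04 and 11.1 CPM in IP (-2.62 on the log2 scale, SE 0.27). Gria4, typical of interneurons in the hippocampus, was at 23.9, 21.9 and 27.4 CPM in input against 4.10, 3.24 and 2.99 CPM in IP (-2.82 on the log2 scale, SE 0.34). For none of the 4 did the groups overlap, and input library 2 was the lowest input library for each.

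Within the AMPA family, Gria1 took a larger share in every IP library than in any input library. Counts per kb of the longest annotated transcript were used for shares within a family, since longer transcripts give more counts. Gria1 made up 83.8% ± 0.93 of the AMPA counts per kb in input and 89.7% ± 0.57 in IP (SD, n = 3 each). Gria2 went from 7.06% ± 0.43 to 5.53% ± 0.80, Gria3 from 6.58% ± 0.66 to 3.59% ± 0.40 and Gria4 from 2.60% ± 0.42 to 1.21% ± 0.26. The groups did not overlap for any of the 4 shares. Each had an exact two-sided permutation p of 0.10, the smallest possible, and an adjusted p of 0.22 over 26 such tests, so none passed. Shares of a family sum to 100, and are not independent of each other. They also depend on the scale. Per kb of the median annotated transcript, Gria1 stood at 72.7% ± 1.24 in input and 80.5% ± 1.38 in IP. Gria2 stood at 17.2% ± 0.92 and 13.9% ± 1.86 on that scale. Without division by length, Gria1 stood at 79.3% ± 0.99 in input and 85.8% ± 1.06 in IP.

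NMDA receptors pair the obligatory subunit GluN1, encoded by Grin1, with GluN2 subunits that bind glutamate or GluN3 subunits that bind glycine. Of the 6 genes, 4 fell and 2 were not called. Grin1 (ENSMUSG00000026959, chromosome 2, 25291181 to 25319187, minus strand), whose start region is shown above, was at 676, 581 and 725 CPM in input against 230.0, 213 and 273 CPM in IP. Its groups were far apart (log2 fold -1.47, SE 0.16, edgeR adjusted p = 5.2e-05). The antisense gene Grin1os shares 1307 exonic bases with it and had 7577 counts in input and 2079 in IP. Since the strand setting of the counting is not given in the sources used here, reads of the pair cannot be fully told apart. Grin2c was at 82.0, 68.5 and 83.6 CPM in input against 30.7, 47.8 and 58.0 CPM in IP, a small fall (log2 fold -0.78, SE 0.24, edgeR adjusted p = 0.025). Its call was lost without IP library 1, IP library 2, input library 1 or input library 3 (edgeR adjusted p of 0.053 to 0.076). Leaving out pair 1 or pair 2 also ended it (edgeR adjusted p of 0.17 and 0.090). Grin2d, a subunit of interneurons, was at 35.6, 57.7 and 33.4 CPM in input against 11.8, 17.7 and 11.02 CPM in IP (-1.65 on the log2 scale, SE 0.31). Pair 2 was the highest in both groups. Grin3a was at 38.8, 31.6 and 30.6 CPM in input against 4.70, 12.4 and 9.62 CPM in IP (-1.93 on the log2 scale, SE 0.37). Grin2a, encoding the GluN2A subunit of mature synapses, had low counts for a long annotated transcript, at 3.91, 2.19 and 6.98 CPM in input against 3.83, 0.0853 and 3.83 CPM in IP, and was not called (log2 fold -0.75, SE 1.14, edgeR adjusted p = 0.63).

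Grin2b was the one receptor gene with a higher mean level in IP. It encodes GluN2B, the GluN2 subunit that prevails early in development and persists in adult hippocampus (ENSMUSG00000030209, chromosome 6, 135713233 to 136173511, minus strand). Its levels were 51.0, 27.3 and 87.8 CPM in input libraries 1, 2 and 3, against 104, 79.9 and 143 CPM in IP libraries 1, 2 and 3. The IP library was higher in all 3 pairs, but IP library 2 was below input library 3, so the groups overlapped. The log2 fold was 0.98 (SE 0.38) and missed the threshold (edgeR adjusted p = 0.061). With the title code as a block it was 1.09 (SE 0.20) and was called (edgeR adjusted p = 0.0014), as it was with DESeq2 (adjusted p = 0.026) and limma-voom (adjusted p = 0.024). Without input library 3 it was 1.46 (edgeR adjusted p = 0.0080). An offset for the trend of fold on transcript length over all genes turned its direction, to -0.30 (SE 0.38, edgeR adjusted p = 0.56), or -0.19 with the block added (edgeR adjusted p = 0.49). Its longest annotated transcript, of 24060 bases, is the longest of the 33, and the offset rests on that length. Its median annotated transcript is 703 bases, and an offset on median lengths was not run. Whether length accounts for the higher level in IP was not tested.

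The leading GluN2 gene depended on the scale. By counts per kb of the longest transcript, Grin2c led in both groups. Its share was 60.5% ± 5.81 in input and 55.6% ± 6.55 in IP (SD, n = 3 each). Grin2b went from 8.65% ± 4.49 to 27.7% ± 6.66 of the 4 genes' counts per kb, with no overlap. Grin2d went from 29.7% ± 9.94 to 15.6% ± 4.99, again with no overlap (exact permutation p = 0.10 for both, adjusted p = 0.22). Grin2a stood at 1.12% in both groups. Without division by length, Grin2c led in input, with 43.7% ± 4.04, and Grin2b in IP, with 63.5% ± 7.55. Per kb of the median annotated transcript, which is 703 bases for Grin2b and 4587 for Grin2c, Grin2b led in both groups, with 72.0% ± 11.7 in input and 91.9% ± 2.44 in IP.

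**Figure D2:**
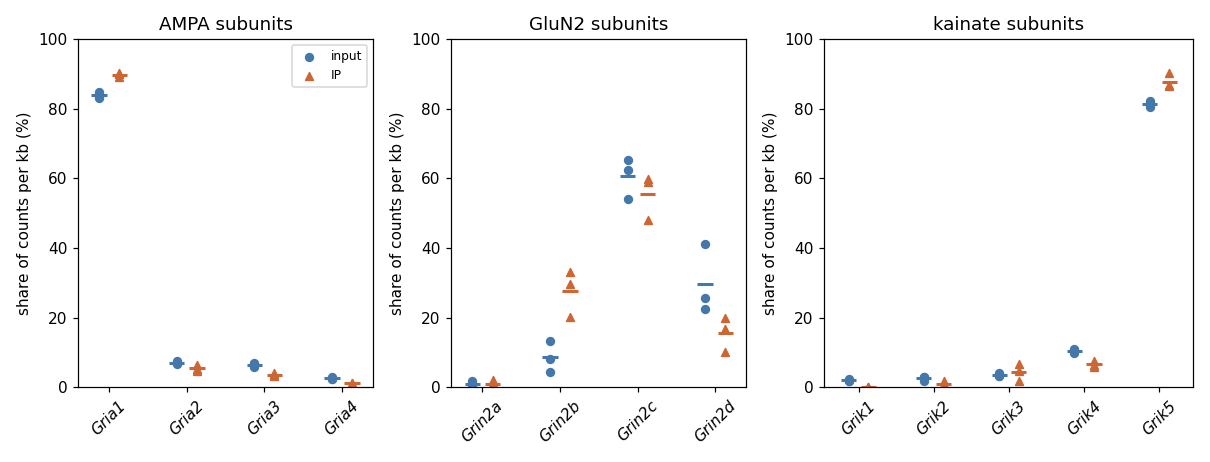
Share of each subunit gene in the counts per kb of its family (percent), per library, for AMPA, GluN2 and kainate genes; circles are input, triangles IP and bars group means. Gria1 and Grik5 held over 80% of their families in all 6 libraries per kb of the longest transcript, the scale shown. On that scale Grin2b stood at 20.3% to 33.2% in IP against 4.38% to 13.3% in input.

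Kainate receptors modulate transmission on both sides of the synapse. GluK1 to GluK3 can form channels alone, while the products of Grik4 and Grik5 need one of them as a partner. Grik5 was the most abundant, at 363, 312 and 370.3 CPM in input against 156, 163 and 187 CPM in IP, a clear but moderate fall (log2 fold -1.05, SE 0.15, edgeR adjusted p = 0.00029). Grik4, concentrated in the CA3 field, was at 71.9, 58.0 and 63.9 CPM in input against 17.1, 16.1 and 22.9 CPM in IP (-1.79 on the log2 scale, SE 0.22). Both had groups that did not overlap. Grik1, found in interneurons, was at 10.3, 6.30 and 7.23 CPM in input and had no count in any IP library. Against a floor of 3 counts over the IP group, the IP level was at least 109.6-fold lower (edgeR adjusted p = 0.00062), where a count of 0 allows up to 0.162, 0.256 and 0.280 CPM in libraries 1, 2 and 3. Grik2 was at 18.4, 27.8 and 32.3 CPM in input against 8.31, 4.09 and 1.40 CPM in IP. It fell by 2.48 on the log2 scale (SE 0.57). The log2 fold was -3.24 without IP library 1 and -3.20 with the length offset, and the call was lost without pair 2 (edgeR adjusted p = 0.088). Grik3 overlapped between groups, at 42.0, 27.7 and 32.3 CPM in input against 19.3, 28.2 and 8.69 CPM in IP, and was not called (log2 fold -0.86, SE 0.40, edgeR adjusted p = 0.10). It was called lower without IP library 2 (log2 fold -1.29, edgeR adjusted p = 0.031), with limma-voom (adjusted p = 0.026) and with the length offset (log2 fold -1.55, edgeR adjusted p = 0.011).

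Grik5 made up 81.3% ± 0.82 of the kainate counts per kb in input and 87.7% ± 2.13 in IP (SD, n = 3 each), while Grik4 went from 10.4% ± 0.62 to 6.69% ± 0.87. Neither share overlapped between the groups, with an exact permutation p of 0.10 and an adjusted p of 0.22 for both. Per kb of the median transcript, Grik5 stood at 92.9% in input and 96.0% in IP. Without division by length it stood at 72.4% and 79.9%. Grid1 encodes GluD1, which is related to these channels and acts chiefly as a synaptic organizer. It was at 82.1, 68.2 and 71.0 CPM in input against 20.8, 9.12 and 12.1 CPM in IP, well apart (log2 fold -2.39, SE 0.31, edgeR adjusted p = 0.00017).

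Metabotropic glutamate receptors tune release and excitability. Grm5, the member that couples to phospholipase C on the postsynaptic side, was at 87.5, 61.5 and 111 CPM in input against 19.97, 11.3 and 9.25 CPM in IP (-2.67 on the log2 scale, SE 0.34, or -3.29 with the length offset). Grm2, an inhibitory autoreceptor of mossy fibre terminals, was at 75.9, 47.8 and 52.2 CPM in input against 24.2, 18.1 and 19.1 CPM in IP (-1.51 on the log2 scale, SE 0.25). Grm3, its close relative in astrocytes and neurons, was at 35.8, 46.4 and 53.3 CPM in input against 6.96, 7.68 and 2.43 CPM in IP, the lowest fitted fold of the family (log2 fold -2.98, SE 0.42). Grm7, a receptor of presynaptic active zones, was at 32.7, 22.7 and 24.8 CPM in input against 4.21, 5.63 and 3.74 CPM in IP (-2.56 on the log2 scale, SE 0.34). All 4 were called lower and none overlapped between groups.

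The presynaptic receptor genes Grm4 and Grm8 were not called, and each turned on 1 IP library. Grm4 was at 19.2, 33.6 and 17.3 CPM in input against 6.64, 23.9 and 2.05 CPM in IP, highest in pair 2 in both groups (log2 fold -1.11, SE 0.71, edgeR adjusted p = 0.24). It was called lower without IP library 2 (log2 fold -2.42, edgeR adjusted p = 0.013), with the block (log2 fold -1.63, edgeR adjusted p = 0.020) and with limma-voom (adjusted p = 0.025). The 9 inhibitory neuron markers were mixed in this respect: 5 were highest in input library 2, 7 in IP library 2 and 4 in library 2 of both groups. Summed markers of oligodendrocytes and of their precursors were also highest in library 2 of both groups, as was the inhibitory sum. The sums of the other marker lists were not. The part of any of these cell types in the level of Grm4 was not tested. Grm8 was at 6.66, 8.02 and 3.80 CPM in input against 0, 0 and 3.64 CPM in IP (-2.36 on the log2 scale, SE 1.62, edgeR adjusted p = 0.27). Without IP library 3 it was at 0 in IP, at least 62.2-fold lower over the floor of 3 counts, and was called (edgeR adjusted p = 0.00087), as it was with limma-voom (adjusted p = 0.025).

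All 9 GABA-A receptor genes fell in IP, and the groups overlapped for none of them. Alpha subunits set where the receptor sits and how it binds its ligands. Gabra5, the alpha subunit typical of extrasynaptic receptors in hippocampal pyramidal cells, was at 176, 142 and 223 CPM in input against 32.3, 22.6 and 14.7 CPM in IP (-2.95 on the log2 scale, SE 0.30, edgeR adjusted p = 3.8e-05). Gabra3 was at 52.4, 56.4 and 54.9 CPM in input against 7.66, 10.2 and 3.46 CPM in IP (-2.93 on the log2 scale, SE 0.37). Gabra4, a partner of the delta subunit in dentate granule cells, was at 40.6, 36.0 and 43.7 CPM in input against 6.31, 3.67 and 3.74 CPM in IP (-3.12 on the log2 scale, SE 0.32). Gabra2, an alpha subunit of synaptic receptors, was at 29.7, 20.4 and 10.8 CPM in input against 3.51, 3.75 and 0 CPM in IP (-3.05 on the log2 scale, SE 0.97, edgeR adjusted p = 0.027). Its call was lost without input library 1, IP library 1 or input library 2 (edgeR adjusted p of 0.10, 0.053 and 0.066). Leaving out pair 1 or pair 2 also ended it (edgeR adjusted p of 0.17 and 0.14). The fitted log2 folds of these 4 genes lay between -3.12 and -2.93. Their shares of the alpha counts per kb overlapped between the groups. Gabra5 stood at 70.1% ± 4.79 in input and 71.7% ± 4.79 in IP (exact permutation p = 0.90). Per kb of the median transcript it stood at 54.3% and 56.3%.

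The delta subunit, which serves tonic inhibition outside synapses, was almost constant over input libraries. Gabrd was at 29.9, 30.1 and 30.0 CPM there and at 3.67, 5.54 and 15.0 CPM in IP, where library 3 stood above the other two (log2 fold -1.90, SE 0.49, edgeR adjusted p = 0.0097, or -2.72 without IP library 3). Its call was lost without pair 1 (edgeR adjusted p = 0.071) or pair 2 (edgeR adjusted p = 0.11). Gabrb1 and Gabrb2 encode beta subunits, which help to bind GABA. Gabrb2 was at 13.5, 8.02 and 21.7 CPM in input against 0, 1.88 and 0 CPM in IP, and its log2 fold of -4.56 (SE 1.36, edgeR adjusted p = 0.020) was -3.91 without IP library 1. Without IP library 2 it was at 0 in IP, at least 140.4-fold lower over the floor of 3 counts. Its call was lost without input library 3 (edgeR adjusted p = 0.077) and with DESeq2 (adjusted p = 0.066), and its fold was -6.64 with limma-voom. Leaving out pair 1 or pair 3 also ended the call of Gabrb2 (edgeR adjusted p of 0.088 and 0.083). Gabrb1 was at 20.2, 18.4 and 34.2 CPM in input against 13.7, 10.6 and 8.13 CPM in IP (-1.16 on the log2 scale, SE 0.36, edgeR adjusted p = 0.023). It was not called without IP library 2 (edgeR adjusted p = 0.052) or input library 3 (edgeR adjusted p = 0.13), and its fold was -2.11 with the length offset. Leaving out pair 1, pair 2 or pair 3 also ended its call (edgeR adjusted p of 0.055, 0.073 and 0.15).

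Gamma subunits anchor the receptor at synapses and shape its response to benzodiazepines. Gabrg1, which astrocytes also express, was at 6.29, 10.6 and 12.7 CPM in input against 0.648, 1.71 and 0.0934 CPM in IP (-3.58 on the log2 scale, SE 0.93, edgeR adjusted p = 0.010). Its fold was -4.64 without IP library 2. It was not called without input library 3 (edgeR adjusted p = 0.052) or without pair 1 (edgeR adjusted p = 0.066). Gabrg3 was at 9.27, 14.5 and 19.3 CPM in input against 6.85, 3.33 and 2.52 CPM in IP (-1.75 on the log2 scale, SE 0.53, edgeR adjusted p = 0.021). Leaving out input library 2, IP library 2 or input library 3 ended that call (edgeR adjusted p of 0.060, 0.056 and 0.11), and with the length offset the fold was -2.49. The call of Gabrg3 was also lost without pair 2 or pair 3 (edgeR adjusted p of 0.14 and 0.12). The 4 neighbours on chromosome 5 had log2 folds from -3.58 to -1.16, and the 2 neighbours on chromosome 7 had -1.75 and -2.95.

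The GABA-B receptor is a pair of subunits, of which the product of Gabbr1 binds GABA and that of Gabbr2 couples to the G protein. Gabbr1 (ENSMUSG00000024462, chromosome 17, 37045966 to 37075067, plus strand), whose start region is shown above, had the highest input level per kb of transcript of the 33 genes. It was at 978, 955 and 967 CPM in input against 196, 234 and 223 CPM in IP, with little spread in either group (log2 fold -2.15, SE 0.14, edgeR adjusted p = 2.0e-06). Gabbr2 was at 348, 229 and 327 CPM in input against 64.2, 59.0 and 109 CPM in IP (-1.97 on the log2 scale, SE 0.26, edgeR adjusted p = 0.00022). Gabbr1 held 78.0% ± 3.55 of the pair's counts per kb in input and 75.8% ± 6.09 in IP (SD, n = 3 each), and the groups overlapped (exact permutation p = 0.70).

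**Figure D3:**
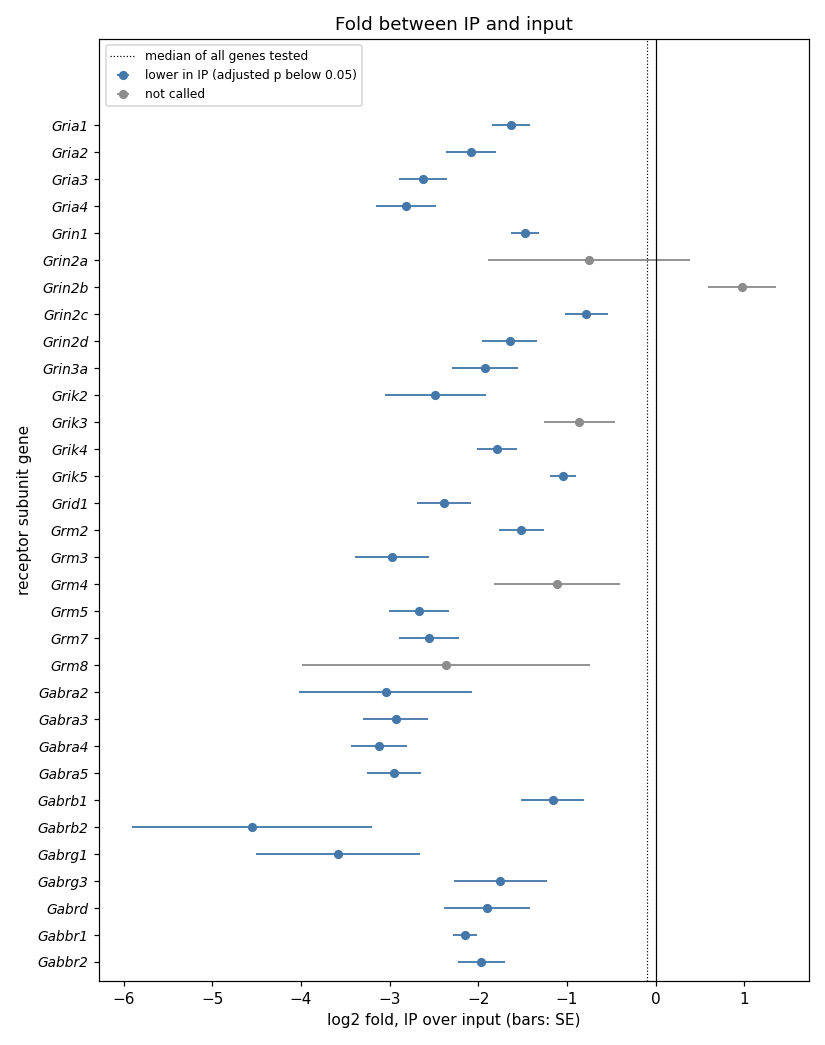
Log2 fold of IP over input for 32 receptor genes, with SE as bars; Grik1, with no count in IP, is left out because its fitted fold is not a measured size. Blue genes were called lower by edgeR, grey genes were not called, and the dotted line is the median of all genes tested, -0.10.

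Levels of different genes can be set side by side per kb of the longest transcript. In input Gabbr1 stood at 184 ± 2.19 CPM per kb, Grin1 at 155 ± 17.2, Gria1 at 148 ± 35.1, Grik5 at 85.8 ± 7.79, Gabra5 at 67.5 ± 15.2 and Gabbr2 at 52.5 ± 11.1 (SD, n = 3). In IP, Grin1 stood at 55.8 ± 7.25 CPM per kb, Gria1 at 47.7 ± 8.02, Grik5 at 41.5 ± 3.96, Gabbr1 at 41.5 ± 3.73, Gabbr2 at 13.4 ± 4.74 and Grin2c at 9.29 ± 2.82. The SD ranges of Grin1 and Gria1 overlapped in both groups, as did those of Grik5 and Gabbr1 in IP. Differences between genes within the same library were not tested. Gabra5 was at place 5 in input and at place 7 in IP. Grin2b was at place 27 in input and at place 8 in IP. All these levels and places rest on the length of the longest transcript. The median annotated transcript is 821 bases for Gabbr1 and 880 for Grik5, against 3823.5 for Grin1 and 5361 for Gria1. Per kb of it, Grin1 and Gria1 would not lead in IP.

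Folds were less negative for receptor genes with longer transcripts. Across the 33 genes, Spearman's rho of the log2 fold with longest-transcript length was 0.45, as a description of genes that share the same libraries, and 0.19 across 15948 tested genes with a length. It was 0.55, 0.31 and 0.26 in pairs 1, 2 and 3. The 8 genes with a transcript of at least 8 kb had a median log2 fold of -1.46, from -2.67 for Grm5 to 0.98 for Grin2b, and 5 of them were called lower. The other 25 had a median of -2.36, and 23 were called lower, against 23.9% of all genes tested. The relation depended on the measure of length: rho was 0.22 with the median length of a gene's annotated transcripts and -0.12 with the length of the gene itself.

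**Figure D4:**
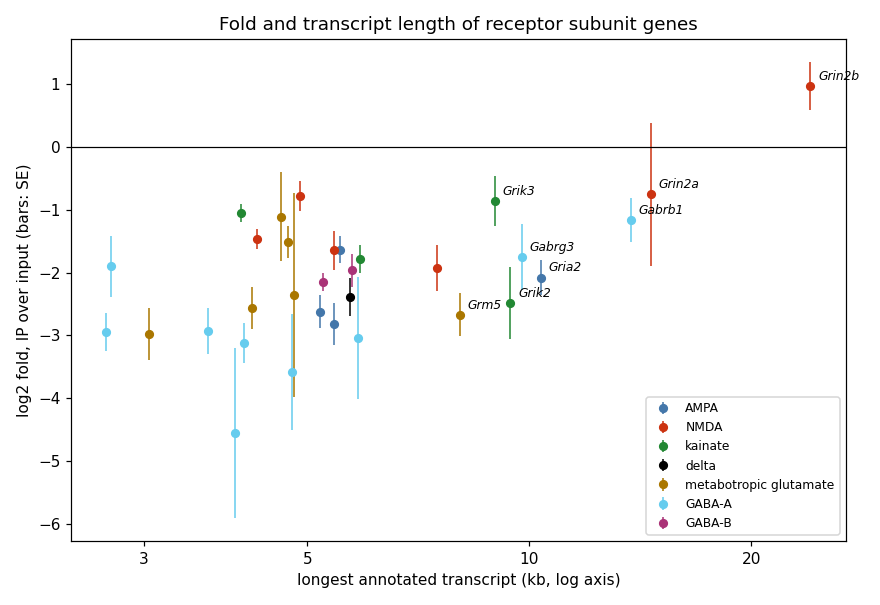
Log2 fold of IP over input (SE as bars) against the length of the longest annotated transcript in kb on a log axis, for 32 receptor genes coloured by family, without Grik1, which had no count in IP. Genes of at least 8 kb are named, and Grin2b, at 24060 bases, is the only one above 0.

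Lists of auxiliary subunits and partners of the receptors were fixed beside the 33 genes. More of their genes were called lower than higher, except in the GABA-B auxiliary list, where none was lower. Of all genes tested, 23.9% were called lower and 23.8% higher, and the counts of each list stand beside these shares. Of 15 genes for AMPA receptor auxiliary subunits, 13 were lower and none higher, with a median log2 fold of -1.95. Cnih2, a cornichon that slows AMPA receptor closing, fell from 815 ± 48.6 to 159 ± 34.7 CPM, and Olfm1 from 1665 ± 263 to 235 ± 20.7 CPM (SD, n = 3 each). Both kainate auxiliary genes were lower: Neto1 fell from 55.5 ± 9.62 to 15.7 ± 6.02 CPM and Neto2 from 17.5 ± 2.38 to 1.47 ± 1.68 CPM. The log2 fold of Neto1, -1.83, was -2.47 with the length offset. That of Neto2, -3.52, was -4.93 without IP library 1, -4.23 with the block and -4.59 with limma-voom, and its call was lost without pair 2 (edgeR adjusted p = 0.16).

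The exception was Kctd12, whose product binds the GABA-B receptor and speeds its desensitization (ENSMUSG00000098557, chromosome 14, 102976581 to 102982637, minus strand). It was at 75.5, 48.7 and 88.0 CPM in input against 1114, 1042 and 1279 CPM in IP, so every IP library was more than 10-fold above every input library. Its log2 fold was 4.02 (SE 0.24, edgeR adjusted p = 1.2e-06). It was thus higher in IP while Gabbr1 and Gabbr2, the receptor it binds, were lower. Of the other GABA-B auxiliary genes none was called, and Kctd8 was at 6.38, 7.65 and 4.72 CPM in input against 0, 3.75 and 0 CPM in IP (-2.33 on the log2 scale, SE 1.60). Without IP library 2, Kctd8 was at 0 in IP, at least 60.9-fold lower over the floor of 3 counts, and was called (edgeR adjusted p = 0.0023), as it was with limma-voom (adjusted p = 0.020).

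Of 12 genes of the inhibitory postsynaptic scaffold and GABA-A receptor trafficking, 6 were lower and 1 was higher. Over all genes tested these shares were 23.9% and 23.8%. The list had a median log2 fold of -0.996. Gabarapl1, an autophagy protein related to the GABA-A receptor binding protein GABARAP, fell from 1107 ± 40.3 to 181 ± 37.5 CPM. Gabarap itself was at 256 ± 29.6 and 309 ± 69.6 CPM and was not called (log2 fold 0.27, SE 0.19), or was called higher with the length offset (log2 fold 0.66, edgeR adjusted p = 0.018). The higher gene, Plcl2, picked for its values, encodes a phospholipase C-like protein without catalytic activity. It was at 64.1, 66.5 and 70.9 CPM in input against 192, 248 and 272 CPM in IP (1.82 on the log2 scale, SE 0.17, edgeR adjusted p = 2.2e-05). Of 12 genes of AMPA and NMDA receptor trafficking, 7 were lower and none higher (median -0.96). Dlg4, the scaffold PSD-95, fell from 1236 ± 146 to 356 ± 38.4 CPM, and Nptxr, which clusters AMPA receptors, from 1541 ± 386 to 354 ± 34.1 CPM.

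Further lists held genes that supply and remove the transmitters. Of 8 genes for GABA synthesis, transport and breakdown, 7 were lower and none higher (median -2.41). Slc6a11, a GABA transporter of astrocytes, fell from 223 ± 53.7 to 28.1 ± 11.96 CPM. Of 12 genes for glutamate transport and metabolism, 7 were lower and 1 was higher (median -1.12). Slc17a7, the vesicular glutamate transporter of excitatory terminals, fell from 2579 ± 518 to 440.1 ± 78.3 CPM. Glul, glutamine synthetase, was at 1719 ± 120 CPM in input against 2001 ± 372 CPM in IP, and the difference was within the spread (log2 fold 0.22, SE 0.17, edgeR adjusted p = 0.32). The higher gene, Slc38a1, a glutamine transporter picked for its values, was at 96.6, 86.3 and 91.2 CPM in input against 193, 188 and 160 CPM in IP (0.98 on the log2 scale, SE 0.15, edgeR adjusted p = 0.00051).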

How the data were processed

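The authors deposited whole-number read counts per Ensembl gene for 6 libraries, not normalized. The submitters' processing notes list Trimmomatic, FastQC and bcl2fastq 2.17, with mm10 as the build. Which aligner and counter made the counts, on which annotation and with which strand setting, is not given in the sources used here. Per the labels' protocols, stranded libraries were made after mRNA enrichment. Names, coordinates and transcript lengths are from GENCODE M21 (GRCm38), which named 37693 of 39017 identifiers. The other 1324 held 0.403% to 0.464% of the counts and stayed in totals and tests.

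IP was compared with input by edgeR 4.0.16 (R 4.3.3): TMM, filterByExpr with a minimum count of 10, robust quasi-likelihood F test over all genes, Benjamini-Hochberg adjustment and no block. The prior count was 0.125, and each SE was computed as the fold over the root of F. CPM values are scaled by TMM factors, and intervals and floors cover counting error only. A fold against a group without counts uses a floor of 3 counts over the group. The test was also run on simulated data in which few genes changed, whereas 47.7% of the genes tested were called here. No result in this text rests on that run. Libraries of 1 group always differed beyond sampling noise (chi-square per degree of freedom 24.1 to 48.0).

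Libraries were paired by title code. Deviations from group means, over 11187 genes, correlated at 0.06, 0.23 and 0.17 within codes and at -0.19 to 0.01 between codes. Since each group was centred on its own mean, positive values within codes bring negative ones between codes, so this contrast is partly built in. The length offset is a loess trend (span 0.5) of log2 fold on the log2 length of the longest transcript, centred on its median. DESeq2 1.42.0 and limma 3.58.1 were alternatives. Values in every library are given for genes that were called or reached a mean of 10 CPM, and the 2 most abundant genes of each list are named, except for 1 gene that is not reported here. The genes and lists were chosen with earlier results of these data known, so no set test was run. Exact tests used SciPy 1.17.1, under Python 3.11.15, and figures Matplotlib 3.10.9.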

Additional observations from a re-analysis of the deposited data

How the results depend on the processing

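The count of lower receptor genes, 28, stayed within 1.5 times under every alternative run: 22 with a 2-fold minimum, 27 with DESeq2, 29 with the title code as a block, 31 with limma-voom and 22 to 29 without single libraries or pairs. Of the 28 genes, 19 were called lower in all 21 alternatives. The count of higher genes, 0, was 1 with DESeq2, limma-voom and the block, and 0 to 1 without single libraries or pairs; the gene is Grin2b in each case. The block also called Grm4 lower and changed no other receptor gene's call. The median log2 fold of -2.08 was -2.50 with the length offset and -2.58 with the offset and the block, which remove the trend on length by construction. The fold of Grin2b turned to -0.30 and -0.19 under these offsets, which used only the longest transcript of each gene. The rank correlation of fold with length, 0.45, was 0.22 with median transcript lengths, 0.26 in pair 3 by itself, 0.39 without Grin2b and -0.12 with gene lengths; the last 2 were chosen after seeing the data, and the cause was not tested. In the GABA-B auxiliary list, 2 genes were higher with DESeq2 against 1, and 0 to 1 were lower without single libraries.

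Of 200 share alternatives, 15 changed the sign of a difference in percentage points, none of them called. Without single libraries these ranged from -0.45 to 0.54 for Grin2a, -0.21 to 2.23 for Grik3, -1.59 to 13.8 for Grm4 and -2.56 to 2.12 for Grm8. They ranged from -1.94 to 0.57 for Gabra2, -3.05 to 1.54 for Gabra3, -2.08 to 0.62 for Gabra4 and -0.54 to 4.36 for Gabra5. For Gabbr1 and Gabbr2 they ranged from -4.84 to 1.17 and from -1.17 to 4.84. The difference for Gabra3, -0.04, was 0.15 with median transcript lengths and 0.13 without division by length.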
